A study of Mus musculus with 12 samples.

Results

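The genes described here make sialic acid, attach it to glycans or recognise it: Gne, Nans, Cmas and Cmah, which build and modify the activated sugar, the sialyltransferase genes St3gal1, St3gal6 and St6gal1, and the receptor genes Siglec1, Siglece and Cd33. These 10 genes were taken by name from the 24445 gene symbols counted in cardiac macrophages (Mφ), and all 10 were among the 14608 genes that passed the filter on low counts. They were proposed with earlier values of the same libraries known, so their differences between the groups are described below without a p, and counts of members that passed a test are given as a description only. Tests are given for the other genes of the pathway.

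Mφ positive for CD14 and CD64 were sorted from hearts of adult male mice of the strain labelled C57BL6/J, which were 9 to 20 weeks old by the study's methods. The 4 control (Ct) mice were infused with saline. By the study's methods the vehicle ran for 14 or 28 days, and which of these applied to each Ct mouse is not stated. The 4 mice with early concentric hypertrophy (ECH) had a pump delivering isoproterenol, an agonist of β-adrenergic receptors, at 30 mg/kg/day over 14 days. The 4 mice with heart failure (HF) received that dose over 28 days. No transgene was used, and RNA came from 1 sorted population per mouse after enrichment for CD45 on beads, so no cell outside the sort was measured and Mφ subsets were not separated. Ct served as control for both other groups, so ECH and HF values share their reference.

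Sialic acids are acidic sugars that end many glycan chains on the cell surface. Gne and Nans encode enzymes that make N-acetylneuraminic acid, Cmas activates it by coupling it to CMP, and Cmah hydroxylates the activated form to the glycolyl form that human cells cannot make. Sialyltransferases of the Golgi then move it onto galactose, and Siglecs, immunoglobulin-type lectins of leukocytes, bind the sialylated ends. Siglec1 (sialoadhesin) is known as a marker of tissue Mφ, and Siglece and Cd33 encode receptors known to dampen myeloid cell activation.

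The libraries held between 88466559 and 111180291 counts, and between 13600 and 15940 genes had at least 1 count. Ct mouse 2 and HF mouse 1 stood apart: they had 0 counts for 127 and 188 genes, respectively, that had at least 100 counts in each of the other mice of their group, against at most 7 such genes in the other 10 libraries. Library numbers in the labels repeat between mice, and 2 sets were inferred from them. Set A holds all Ct mice and ECH mice 1 and 2, and set B holds all HF mice and ECH mice 3 and 4. Within each set no number repeats, which other splits would also give, and no label assigns a mouse to a set. Every value below for a set, or with the set as a covariate, rests on this inference. Neither the labels nor the methods state what these sets are, and between Ct and HF the set and the group cannot be told apart. The defining genes of the sort (7 of 7, among them Cd14, Fcgr1, which encodes CD64, and Adgre1) were detected in every library, with a sum of 8019 to 11403 CPM (each count scaled to a common library size, corrected for composition by TMM, an edgeR factor).

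Cmah and St3gal6 were the 2 members for which every ECH and every HF mouse lay below every Ct mouse. Of all genes tested, 3.64% stood wholly below Ct in ECH and 4.45% in HF. The promoters of Cmah and St3gal6 are shown because the members that moved together are those whose start regions a reader would compare. The 250 bases before each RefSeq start are given 5′ to 3′ on the strand of the gene, in build GRCm38.p6, with matches to the motifs searched in capitals:
Cmah, chr13:24327154-24327403, plus strand: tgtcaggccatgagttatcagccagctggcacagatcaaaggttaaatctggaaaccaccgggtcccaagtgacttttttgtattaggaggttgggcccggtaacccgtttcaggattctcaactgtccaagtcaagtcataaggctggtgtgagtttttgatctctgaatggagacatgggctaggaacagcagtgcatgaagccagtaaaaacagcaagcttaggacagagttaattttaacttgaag
Cmah, chr13:24414872-24415121, plus strand: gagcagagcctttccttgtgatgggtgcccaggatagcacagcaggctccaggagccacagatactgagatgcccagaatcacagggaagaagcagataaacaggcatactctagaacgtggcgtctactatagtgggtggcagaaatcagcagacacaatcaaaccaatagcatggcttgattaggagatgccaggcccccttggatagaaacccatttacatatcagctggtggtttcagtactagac
St3gal6, chr16:58523427-58523676, minus strand: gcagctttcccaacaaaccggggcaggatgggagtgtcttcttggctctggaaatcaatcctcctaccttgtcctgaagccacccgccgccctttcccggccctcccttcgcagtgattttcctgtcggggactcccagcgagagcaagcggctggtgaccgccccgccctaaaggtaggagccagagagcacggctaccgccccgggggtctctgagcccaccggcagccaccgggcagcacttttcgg
St3gal6, chr16:58524254-58524503, minus strand: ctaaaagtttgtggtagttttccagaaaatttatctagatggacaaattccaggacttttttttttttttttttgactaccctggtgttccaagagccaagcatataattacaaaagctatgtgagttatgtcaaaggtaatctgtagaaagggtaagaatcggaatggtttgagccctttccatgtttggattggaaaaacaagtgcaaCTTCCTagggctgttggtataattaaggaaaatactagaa

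The first Cmah window ends where the gene begins in GENCODE M21 (chr13:24327404-24477377), and the second lies inside the gene. The first St3gal6 window lies inside the gene (chr16:58468125-58524243, minus strand) and the second lies outside its 5′ end. On both strands, 5 motifs were searched: the ETS core AGGAAG, the cAMP response element TGACGTCA, its half-site TGACG (which lies within the full element), the interferon-stimulated response element (GAAA, any 2 bases, GAAA) and the TATA box TATAAA. Neither Cmah window and not the first St3gal6 window held any of them. The second St3gal6 window held 1 ETS core, which 29.5% of the 32851 RefSeq windows of this length hold. The other shares were 1.55% for the cAMP element, 17.8% for its half-site, 2.98% for the interferon element and 12.4% for the TATA box. RefSeq windows were at hand for 7 of the 10 members, 12 windows in all, and the Cmah windows had a GC content of 45.6% and 49.6% and the St3gal6 windows of 64.4% and 34.8%, against a median of 52.4% over all windows.

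Cmah, whose enzyme is the only one of these to change the kind of sialic acid, showed the largest difference of the 10 members. It measured 113, 121, 137 and 149 CPM in Ct mice 1 to 4. In ECH mice 1 to 4 it measured 45.5, 53.0, 19.8 and 27.4 CPM. In HF mice 1 to 4 it measured 73.4, 56.3, 60.0 and 50.8 CPM. Every ECH and every HF mouse lay below every Ct mouse, whereas ECH and HF overlapped. The means were 129.9 ± 16.5 CPM in Ct, 36.4 ± 15.4 in ECH and 60.1 ± 9.6 in HF (SD, n = 4 each), that is 28.0% of the Ct level in ECH and 46.3% in HF. The fitted log2 fold change was -1.83 ± 0.26 (SE) for ECH against Ct and -1.11 ± 0.26 for HF against Ct, and HF stood 0.72 ± 0.26 above ECH. In bulk RNA of sorted cells, fewer cells of a type and less of an RNA per cell cannot be told apart.

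Within the library sets the Cmah difference between ECH and Ct was smaller and that between HF and ECH larger. ECH mice 1 and 2, of the set of the Ct mice, averaged 49.3 CPM, and ECH mice 3 and 4, of the set of the HF mice, averaged 23.6 CPM. Against libraries of the same set only, ECH stood at -1.41 ± 0.20 from Ct on the log2 scale, and HF stood 1.35 ± 0.21 above ECH. HF against Ct has no value within a set. With the set as a covariate it was -0.05 ± 0.27 in place of -1.11, so the lower level of Cmah in HF cannot be told apart from the set.

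The other 3 genes of synthesis were closer in the 3 groups. Gne, the bifunctional epimerase and kinase at the entry of the pathway, measured between 10.5 and 19.6 CPM in Ct, 13.8 and 17.03 in ECH and 12.5 and 24.8 in HF, with log2 fold changes of 0.01 ± 0.24 for ECH and 0.21 ± 0.24 for HF against Ct. Cmas, the CMP-sialic acid synthetase, measured 45.2 to 55.4 CPM in Ct, 48.5 to 56.0 in ECH and 48.9 to 63.2 in HF, with log2 fold changes of 0.09 ± 0.12 and 0.22 ± 0.12. For both genes all groups overlapped.

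Nans, the sialic acid synthase, was the only member whose HF mice all stood above all ECH mice. It measured 37.3, 30.5, 47.7 and 28.5 CPM in Ct mice 1 to 4. Its values in ECH mice 1 to 4 were 39.97, 39.65, 28.9 and 28.5 CPM. In HF mice 1 to 4 it measured 60.1, 42.3, 49.7 and 43.9 CPM. Ct mouse 3 lay within the HF range, so HF and Ct overlapped. The log2 fold change was 0.52 ± 0.20 for HF against ECH, 0.44 ± 0.20 for HF against Ct and -0.07 ± 0.20 for ECH against Ct. Of the exon bases of Nans, 1356 (29.6%) are shared with Trim14 on the opposite strand, which held 4314 to 9647 counts per library against 2621 to 6277 for Nans, and no source used here gives the strand setting of the counting, so reads of both genes cannot be told apart there.

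**Figure D1:**
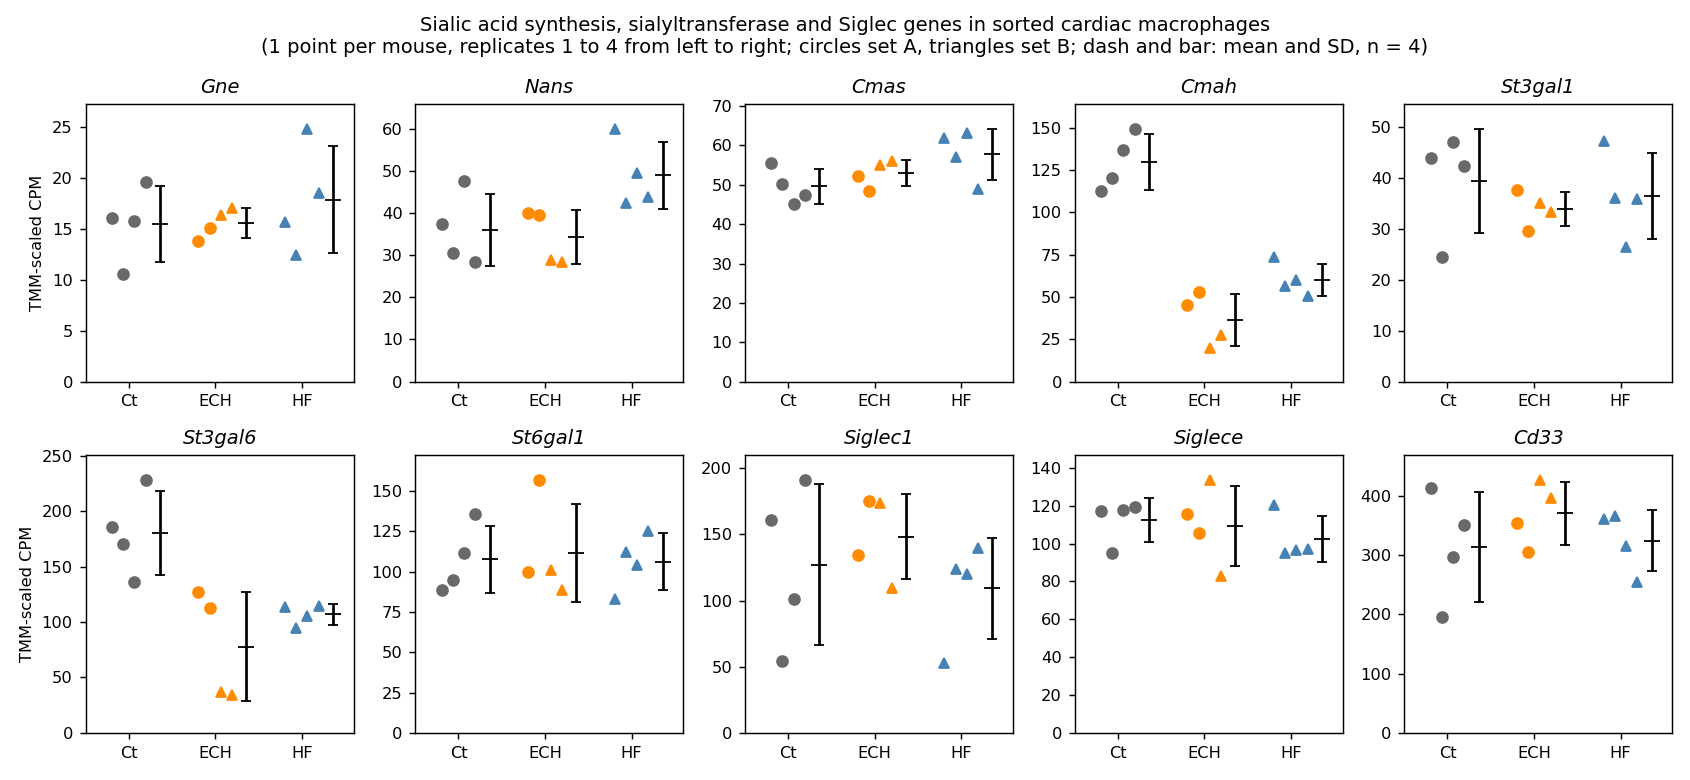
Normalised counts (CPM after TMM scaling, linear axes from 0) of the 10 members in each of the 12 mice, with the mean and SD of 4 mice beside each group; circles are libraries of set A and triangles of set B. All ECH and HF points lie below the Ct points for Cmah (113 to 149 CPM in Ct) and St3gal6, and Siglec1 is low in Ct mouse 2 and HF mouse 1.

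St3gal6 encodes a sialyltransferase that adds sialic acid in α2,3 linkage to galactose, a step in the making of selectin ligands. It measured 186, 171, 136 and 228 CPM in Ct mice 1 to 4. ECH mice 1 to 4 had 127, 112, 36.7 and 34.1 CPM. In HF mice 1 to 4 it measured 113, 94.6, 105 and 114 CPM. All ECH and all HF mice lay below the lowest Ct mouse, and the HF mice lay above ECH mice 3 and 4, below ECH mouse 1 and around ECH mouse 2. The means were 180.3 ± 37.9 CPM in Ct, 77.6 ± 49.2 in ECH and 106.8 ± 9.1 in HF (SD, n = 4 each). The log2 fold change was -1.22 ± 0.37 for ECH and -0.76 ± 0.36 for HF against Ct, and 0.46 ± 0.36 for HF against ECH.

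The ECH mice of the 2 library sets differed by 3.39 times in St3gal6, 119.9 against 35.4 CPM, which was the widest gap between these pairs among the members. Within the same set, ECH stood at -0.60 ± 0.23 from Ct on the log2 scale and HF 1.60 ± 0.13 above ECH. With the set as a covariate the difference between HF and Ct changed sign, from -0.76 to 1.004 ± 0.26. The direction of St3gal6 in HF against Ct therefore rests on how the set is treated. St3gal6 shares 1603 exon bases (26.0%) with Dcbld2 on the opposite strand, which held 1016 to 2441 counts per library against 3946 to 23559 for St3gal6. As for Nans and Trim14, reads of both genes cannot be told apart there.

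St6gal1, which adds sialic acid in α2,6 linkage to N-glycans and makes the ligand of Cd22, stood at similar levels in the 3 groups. It measured 88.6, 95.0, 112 and 136 CPM in Ct mice 1 to 4. In ECH mice 1 to 4 it measured 99.9, 157, 101 and 88.8 CPM, and in HF mice 1 to 4 it measured 83.2, 112, 104 and 125 CPM. The groups overlapped, and the log2 fold change was 0.05 ± 0.20 for ECH and -0.02 ± 0.20 for HF against Ct. St3gal1, which sialylates the core of O-glycans, measured 24.4 to 47.1 CPM in Ct, 29.6 to 37.7 in ECH and 26.5 to 47.4 in HF, with log2 fold changes of -0.22 ± 0.22 and -0.11 ± 0.22. Its lowest value was that of Ct mouse 2.

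Per kb of exon, the levels of St6gal1 and St3gal6 can be set against each other. The ratio of St6gal1 to St3gal6 was 0.598, 0.698, 1.03 and 0.747 in Ct mice 1 to 4. In ECH mice 1 to 4 the ratio was 0.984, 1.75, 3.46 and 3.27, and in HF mice 1 to 4 it was 0.923, 1.49, 1.24 and 1.38. St3gal6 was the higher of the pair in 3 of 4 Ct mice, in 1 of 4 ECH mice and in 1 of 4 HF mice. Ct overlapped with ECH and with HF in this ratio.

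**Figure D2:**
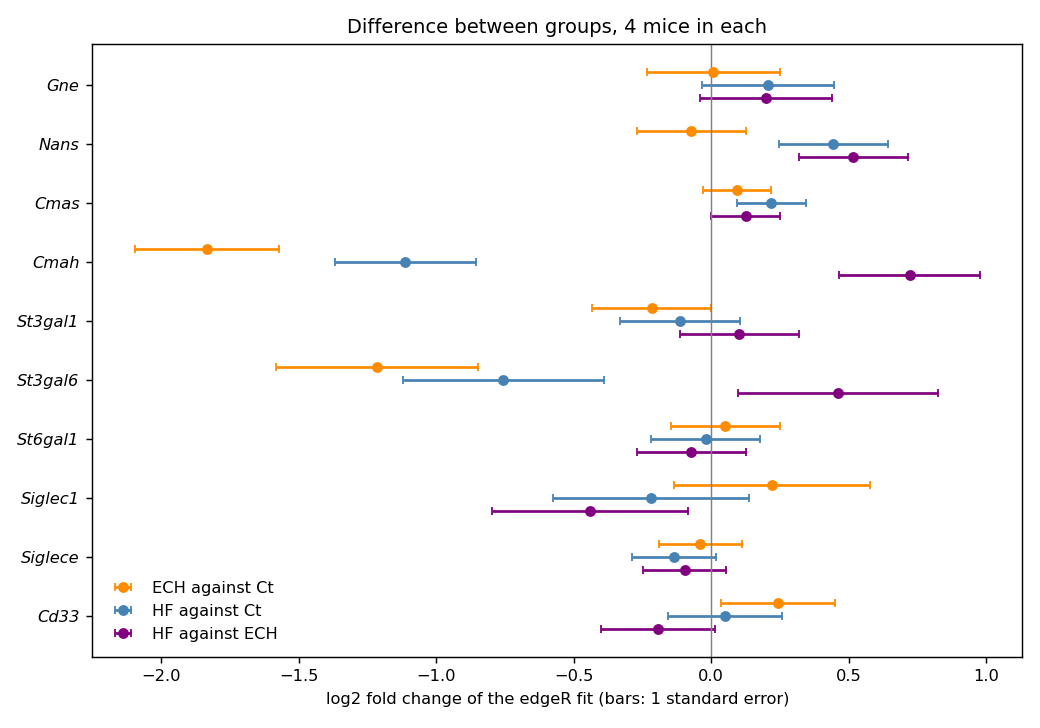
Log2 fold change of each member between the groups, from the edgeR fit over 12 libraries, with 1 standard error, for ECH against Ct, HF against Ct and HF against ECH. Cmah and St3gal6 lie to the left of 0 for both groups against Ct, at -1.83 and -1.22 for ECH, and the other 8 members lie within 0.52 of 0.

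The 3 receptor genes differed little between the groups, and more between mice. Cd33 measured 412, 195, 296 and 350 CPM in Ct mice 1 to 4. Its values in ECH mice 1 to 4 were 354, 304, 426 and 397 CPM, and in HF mice 1 to 4 it measured 360, 366, 315 and 255 CPM. The groups overlapped, with log2 fold changes of 0.24 ± 0.21 for ECH and 0.05 ± 0.21 for HF against Ct. Siglece, whose receptor carries inhibitory motifs in its tail, measured 117, 95.1, 118 and 120 CPM in Ct mice 1 to 4. ECH mice 1 to 4 had 116, 105, 133 and 83.1 CPM, and in HF mice 1 to 4 it measured 120, 95.1, 96.5 and 97.1 CPM. The groups overlapped here as well, with log2 fold changes of -0.04 ± 0.15 and -0.14 ± 0.15.

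Siglec1 encodes a large receptor that binds sialylated ligands on other cells and is known to be induced by type I interferon. Relative to its mean, it varied most of the members among Ct mice and among HF mice. It measured 161, 54.7, 102 and 191 CPM in Ct mice 1 to 4. In ECH mice 1 to 4 it measured 134, 176, 174 and 109 CPM, and in HF mice 1 to 4 it measured 53.0, 124, 120 and 140 CPM. The lowest values in Ct and in HF were those of Ct mouse 2 and HF mouse 1, the libraries with many genes at 0. The log2 fold change was 0.22 ± 0.36 for ECH and -0.22 ± 0.36 for HF against Ct. Without these libraries ECH stood at -0.04 from Ct, and HF stood at -0.21 from ECH in place of -0.44. The 10 interferon response genes listed summed to 266 to 334 CPM in Ct, 260 to 449 in ECH and 225 to 567 in HF, and 0 of the 10 passed an adjusted p of 0.05 in edgeR's quasi-likelihood test between any groups.

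Per kb of exon, the order of the members by their mean in Ct ran from Siglece to Gne. The genes of synthesis all came after the receptors, St3gal6 and St6gal1, and St3gal1 came among them. Siglece came first at 60.8 ± 6.3 CPM per kb (SD, n = 4), then Cd33 at 40.3 ± 11.9, St3gal6 at 29.2 ± 6.1, St6gal1 at 21.9 ± 4.3, Siglec1 at 17.8 ± 8.5, Cmah at 12.2 ± 1.5, Cmas at 10.5 ± 0.9, Nans at 7.86 ± 1.89, St3gal1 at 5.76 ± 1.49 and Gne at 2.44 ± 0.59. Neighbours in this order overlapped in their ranges over the 4 mice, except St3gal1 and Gne. Cmah, 6th in Ct, came 9th in ECH at 3.42 ± 1.45 and 8th in HF at 5.64 ± 0.90. St3gal6 went from 3rd to 5th in ECH, at 12.6 ± 8.0, and to 4th in HF, at 17.3 ± 1.5. Gne was the last and Siglece the first in each group.

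**Figure D3:**
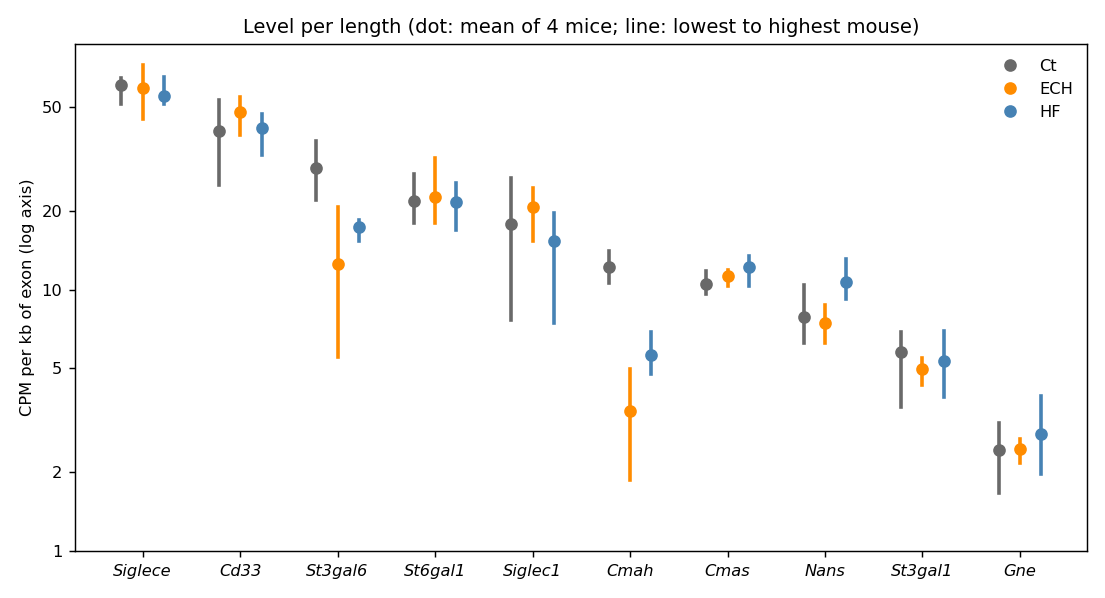
Level of each member per kb of exon (log axis), as the mean of 4 mice with a line from the lowest to the highest mouse, ordered by the Ct mean. Siglece is highest and Gne lowest in all 3 groups, and Cmah falls from 12.2 CPM per kb in Ct to 3.42 in ECH.

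Across the 12 libraries the members did not move as a block. On the scale of log2 CPM (0.1 CPM added), Cmah and St3gal6 were alike (Pearson r = 0.90 over 12 libraries that share groups and library sets), and the other pairs of members lay between -0.61 and 0.59. The genes most like Cmah among all tested were Tfrc, the transferrin receptor (r = 0.953), Ptchd1 (0.953) and Rybp (0.950). Those most like St3gal6 were Mmp13, a collagenase (0.961), Tle1 (0.951) and Fndc4 (0.949). For Siglec1 they were Trappc8 (0.957), Sipa1l2 (0.939) and Taok2 (0.938), for Cd33 Vps11 (0.955), Epas1 (0.940) and Smg8 (0.919), and for Nans C1qbp (0.955), Stoml2 (0.946) and Rhog (0.941). For St3gal1 they were Erc1 (0.922), Gsk3a (0.915) and Rgs14 (0.904), for Cmas Cenpk (0.900), Ints6 (0.853) and Tnfaip8l3 (0.839), for Gne Ints4 (0.864), BC147527 (0.862) and I830077J02Rik (0.852), for St6gal1 Col14a1 (0.871), Gbp3 (0.828) and Serpinb12 (0.828), and for Siglece Sptlc2 (0.811), Pign (0.795) and Msl3 (0.783). Each list is the top of a comparison with all other genes tested, over the same 12 libraries.

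In counts, 1 of the 10 members (Cmah, lower) passed an adjusted p of 0.05 for ECH against Ct, where 0.472% of all genes did (0.356% with a change of at least 2-fold as well, Cmah among them), and 0 did for HF against Ct, where 0.513% did (0.377% with the fold limit). For HF against ECH 0 members passed, and 0 of all genes. ECH stood wholly below Ct for 2 members, where 3.64% of all genes did, and HF for the same 2, where 4.45% did. No share of all genes was computed for both groups at once. HF stood wholly above ECH for 1 member, where 3.36% did. Nothing is read from these counts, since the members were chosen with such values known. The median log2 fold change of the members was -0.02 for ECH against Ct, -0.07 for HF against Ct and 0.11 for HF against ECH, beside 0.01, -0.01 and -0.02 over all genes tested.

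Summed levels of genes of other cell types also differed between the groups in which Cmah and St3gal6 were lower and Ct. The 6 B cell genes measured summed to 175, 487, 102 and 258 CPM in Ct mice 1 to 4, with sums from 42.5 to 86.6 CPM in ECH and from 57.6 to 83.3 CPM in HF. The Ct mice with the highest and the lowest B cell sum, 487 and 102 CPM, had Cmah at 121 and 137 CPM and St3gal6 at 171 and 136 CPM. The part of B cell RNA in the result was not tested beyond these values.

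The T and NK cell genes (5 measured) summed to 8.09 to 34.3 CPM in Ct, 1.94 to 12.7 in ECH and 4.14 to 10.5 in HF, and the 5 neutrophil genes to 329 to 1559 CPM in Ct, 182 to 498 in ECH and 119 to 1228 in HF. Of the 6 genes of resident Mφ, Timd4, a receptor for phosphatidylserine, was lower in ECH than in Ct (54.0 against 166 CPM, log2 fold change -1.62 ± 0.30, adjusted p = 0.034 by the same test). In HF it measured 87.1 CPM (-0.93 ± 0.29, adjusted p = 0.17). The other 5 did not pass in any comparison, and for ECH against Ct their log2 fold changes went both ways. Cd163 stood at 0.72 ± 0.24, Lyve1 at 0.39 ± 0.32 and Mrc1 at 0.27 ± 0.13, whereas Folr2 stood at -0.56 ± 0.18 and Cx3cr1 at -0.97 ± 0.48. The sum of the list lay between 4081 and 5311 CPM in Ct, 4508 and 6061 CPM in ECH, and 3762 and 4627 CPM in HF. The 5 dendritic cell genes summed to 52.7 to 65.2 CPM in Ct, and every mouse of the other groups lay above that, from 76.7 to 124 CPM in ECH and from 96.8 to 120 CPM in HF. The 5 genes of Ly6C-high monocytes lay between 291 and 589 CPM in Ct, 508 and 687 CPM in ECH, and 539 and 903 CPM in HF, and the 5 fibroblast genes between 25.9 and 173 CPM, 76.0 and 389 CPM, and 75.8 and 221 CPM, so that both lists overlapped with Ct. Plasmacytoid dendritic cell, endothelial cell and cardiomyocyte genes summed to at most 347, 98.1 and 176 CPM in any library, with overlap between Ct and each other group. Of these 6 lists, 0 genes passed an adjusted p of 0.05 in any comparison. The eosinophil genes summed to at most 5.82 CPM in any library. The part of these cells in the levels of the members was not tested.

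**Figure D4:**
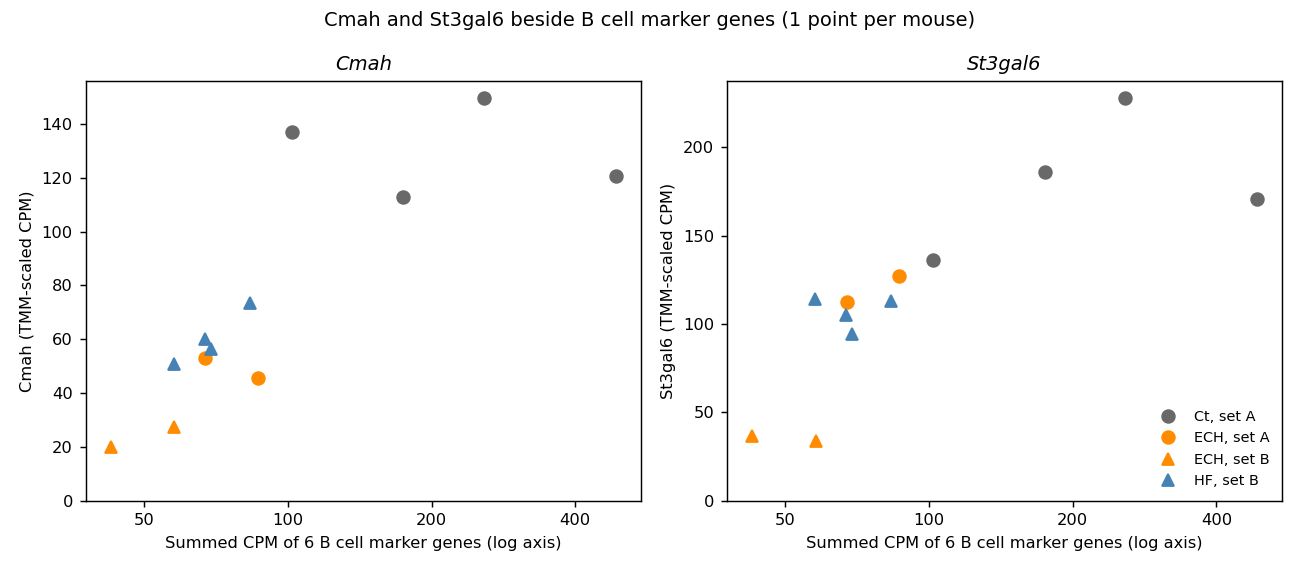
Cmah and St3gal6 (CPM, linear axes from 0) against the summed CPM of 6 B cell genes (log axis), 1 point per mouse, coloured by group with circles for set A and triangles for set B. Ct mice lie at the right, from 102 to 487 CPM of B cell genes, and over that range Cmah stays between 113 and 149 CPM.

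Around the members, 57 further genes of the pathway were listed, of which 49 passed the filter on low counts and were tested. For ECH against Ct, 1 of the 49 was higher and 0 lower at an adjusted p under 0.05, for HF against Ct and HF against ECH 0 passed, beside 0.472%, 0.513% and 0 of all genes. At an unadjusted p under 0.05 they numbered 12 (3 higher, 9 lower), 8 (2 higher, 6 lower) and 6 (4 higher, 2 lower), beside 11.9%, 16.1% and 7.98% of all genes. The median log2 fold change of the 49 was -0.04, 0.01 and 0.18, in the same order. The 8 genes not tested were at 0 or at no more than 22 counts in any library, among them Neu2, St6gal2 and Siglec15 at 0 counts in all 12.

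B4galt1, a galactosyltransferase that builds the N-acetyllactosamine ends to which sialic acid is added, was the gene that passed. It measured 105, 88.0, 95.9 and 99.7 CPM in Ct mice 1 to 4. Its values in ECH mice 1 to 4 were 133, 155, 219 and 178 CPM, and in HF mice 1 to 4 it measured 81.7, 101, 101 and 90.6 CPM. All ECH mice lay above all Ct and all HF mice, and Ct and HF overlapped. The log2 fold change was 0.81 ± 0.15 for ECH against Ct (adjusted p = 0.035, edgeR quasi-likelihood) and -0.87 ± 0.15 for HF against ECH (adjusted p = 0.34). For HF against ECH the call was made in 4 of 23 alternatives, among them libraries of the same set (-1.08 ± 0.13) and the set as a covariate (-1.08 ± 0.14), with adjusted p between 2.0e-04 and 1 over all 23. Over the 23 alternatives the adjusted p for ECH against Ct lay between 1.0e-04 and 0.80 and was under 0.05 in 9. Against Ct libraries of the same set the log2 fold change was 0.55 ± 0.17. With single libraries left out the log2 fold change lay between 0.67 and 0.92, and the call was kept without ECH mouse 1, ECH mouse 2 or HF mouse 1 and lost without any of the other 9.

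The other acceptor galactosyltransferases did not pass. B4galt6, which makes lactosylceramide, measured 94.8 CPM in Ct, 64.9 in ECH and 80.7 in HF on average, with all ECH mice below all Ct mice and a log2 fold change of -0.55 ± 0.18 (adjusted p = 0.23). B4galt5, which shares that reaction, stood at 0.14 ± 0.22 for ECH and 0.34 ± 0.22 for HF against Ct. B4galt2 was at or below 2.45 CPM in every library and at 0 in 3, and its values set no direction.

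In synthesis, recycling and transport, 0 of 8 genes passed in any comparison. Renbp, which binds renin and interconverts N-acetylglucosamine and N-acetylmannosamine, stood at 149, 157 and 150 CPM in Ct, ECH and HF. Npl, the lyase that breaks sialic acid down, stood at 77.5, 90.2 and 102.5 CPM, with a log2 fold change of 0.40 ± 0.20 for HF against Ct (adjusted p = 0.35). Nagk, the N-acetylglucosamine kinase, stood at 69.9, 55.3 and 73.6 CPM, and all HF mice lay above all ECH mice (0.41 ± 0.15, adjusted p = 0.56). Siae, an esterase that removes acetyl groups from sialic acid, stood at 30.9, 42.7 and 38.1 CPM, with 0.46 ± 0.22 for ECH against Ct (adjusted p = 0.42).

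The sialidase group was led by Ctsa, the protective protein of the lysosomal sialidase complex, at 1381 CPM in Ct, 1547 in ECH and 1481 in HF. Neu1, the lysosomal sialidase itself, stood at 138, 159 and 143 CPM. Neu3, the sialidase of the plasma membrane, stood at 9.39, 6.30 and 7.26 CPM, with a log2 fold change of -0.58 ± 0.34 for ECH against Ct (adjusted p = 0.55). That value was -0.24 without Ct mouse 2 and -0.79 without Ct mouse 4. Of the 3 genes tested, 0 passed in any comparison.

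Of 12 further sialyltransferase genes tested, 0 passed in any comparison. St8sia4, a polysialyltransferase, stood at 177 CPM in Ct, 133 in ECH and 141 in HF, with log2 fold changes of -0.42 ± 0.17 (adjusted p = 0.34) and -0.33 ± 0.17 (adjusted p = 0.35) against Ct. St6galnac4 stood at 110, 91.7 and 101 CPM and St3gal4 at 57.9, 60.3 and 50.7 CPM. St6galnac3 and St6galnac5, which had the largest fitted fold changes of the group, did not exceed 1.02 and 0.867 CPM in any library and were at 0 in 4 libraries and 1 library, so those fold changes rest on few counts.

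St3gal3 and St3gal5 are named after their values were seen. St3gal3, another α2,3-sialyltransferase, measured 25.8, 15.9, 16.7 and 22.0 CPM in Ct mice 1 to 4. ECH mice 1 to 4 had 9.30, 14.6, 11.9 and 9.75 CPM, and in HF mice 1 to 4 it measured 5.35, 9.89, 8.79 and 11.3 CPM. All mice of both isoproterenol groups lay below all Ct mice, with log2 fold changes of -0.82 ± 0.27 for ECH (adjusted p = 0.24, under 0.05 with limma-voom) and -1.19 ± 0.27 for HF (adjusted p = 0.079, under 0.05 with DESeq2, the likelihood ratio test and limma-voom). St3gal5, the synthase of ganglioside GM3, measured 9.70, 27.4, 13.2 and 19.3 CPM in Ct mice 1 to 4. In ECH mice 1 to 4 it measured 22.4, 32.2, 68.7 and 43.2 CPM, and in HF mice 1 to 4 it measured 30.0, 31.5, 39.7 and 32.6 CPM. All HF mice lay above all Ct mice and ECH overlapped with Ct, with log2 fold changes of 1.26 ± 0.35 for ECH (adjusted p = 0.15, under 0.05 with DESeq2 and the likelihood ratio test) and 0.94 ± 0.35 for HF (adjusted p = 0.22). Its ECH mice averaged 27.3 CPM in set A and 55.9 CPM in set B, and with the set as a covariate the value for HF against Ct was -0.09 ± 0.50 in place of 0.94.

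**Figure D5:**
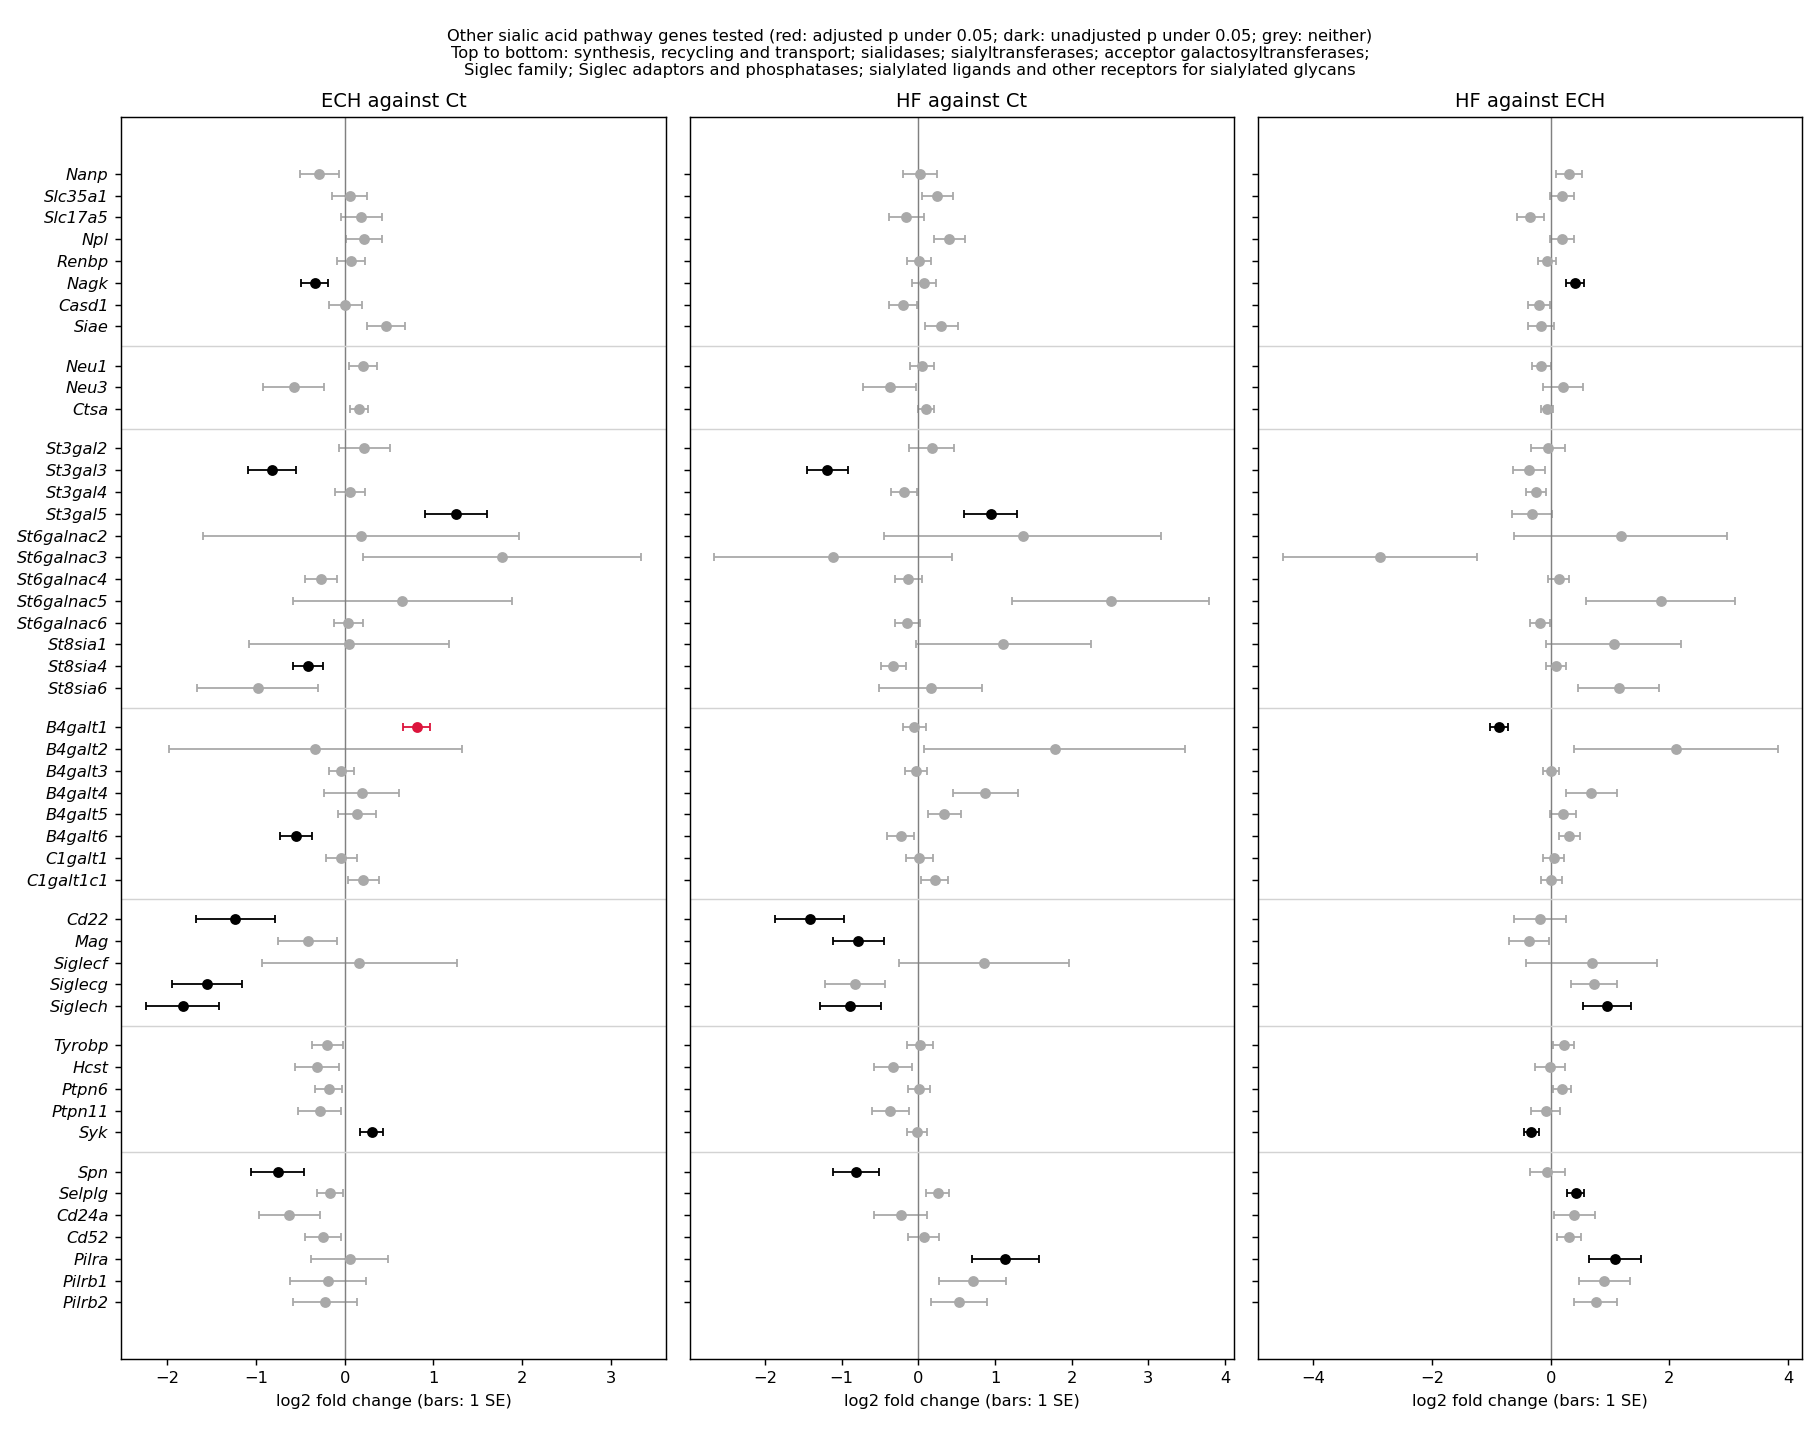
Log2 fold change with 1 standard error of 48 of the 49 further pathway genes tested, in 3 comparisons, grouped by role from top to bottom and coloured by the test. Only B4galt1 in ECH against Ct (0.81 ± 0.15) is past an adjusted p of 0.05, and the Siglec family genes Cd22, Siglecg and Siglech lie to the left of 0 for ECH.

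Among 5 further Siglec family genes tested, 0 passed, and their median log2 fold change was -1.23 for ECH and -0.82 for HF against Ct. Siglech, known from plasmacytoid dendritic cells and microglia, measured 34.7, 9.69, 15.8 and 29.6 CPM in Ct mice 1 to 4. Its values in ECH mice 1 to 4 were 5.33, 10.01, 5.18 and 4.78 CPM, and in HF mice 1 to 4 it measured 12.2, 11.2, 17.8 and 7.51 CPM. Ct mouse 2 lay within both other groups and Ct mouse 3 within HF, and the log2 fold change was -1.83 ± 0.41 for ECH (adjusted p = 0.082, from 9.4e-04 to 0.88 over the alternatives and under 0.05 in 6 of 23, among them the fit without Ct mouse 2, at -2.08) and -0.88 ± 0.40 for HF (adjusted p = 0.30). Cd22 and Siglecg are B cell Siglecs. Cd22 measured 18.8, 40.8, 5.44 and 26.9 CPM in Ct mice 1 to 4, 6.81 to 12.4 CPM in ECH and 7.55 to 10.7 CPM in HF. Its highest and its lowest value of all 12 libraries were those of Ct mice 2 and 3, which had the highest and the lowest B cell sum in Ct, a sum that includes Cd22. The log2 fold change of Cd22 was -1.23 ± 0.45 for ECH (adjusted p = 0.28) and -1.41 ± 0.45 for HF (adjusted p = 0.17), and that of Siglecg was -1.56 ± 0.40 (adjusted p = 0.12) and -0.82 ± 0.39 (adjusted p = 0.33). Without Ct mouse 3, Cd22 passed for ECH (-1.56, adjusted p = 0.039) and for HF (-1.74, adjusted p = 0.023), as it did for HF with DESeq2. Without Ct mouse 2, Cd22 stood closer to Ct, at -0.80 for ECH and -0.98 for HF, and did not pass. Siglecg passed for ECH in 3 of 23 alternatives (DESeq2, the likelihood ratio test and without ECH mouse 1). The ECH mice of set A had 1.95 times the Siglecg level of those of set B, and with the set as a covariate Siglecg in HF against Ct was 0.14 ± 0.62, a change of sign.

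The adaptors, phosphatases and kinase through which Siglecs signal differed widely in level. Tyrobp, the adaptor DAP12, stood at 1121 CPM in Ct, 979 in ECH and 1138 in HF. Ptpn6, the phosphatase SHP-1, stood at 514, 454 and 518 CPM. Syk, the kinase, stood at 206, 254 and 203 CPM, with log2 fold changes of 0.31 ± 0.13 for ECH against Ct (adjusted p = 0.37) and -0.33 ± 0.13 for HF against ECH (adjusted p = 0.58). Ptpn11 and Hcst stood at 35.3 and 32.5 CPM in Ct, 29.1 and 26.2 in ECH and 27.4 and 25.9 in HF. Of these 5 genes, 0 passed in any comparison.

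Of the 8 sialylated ligands and other receptors, 0 passed in any comparison in the fit without a term for the library set. Pilra, an inhibitory receptor for sialylated O-glycans, measured 86.8, 68.0, 208 and 75.0 CPM in Ct mice 1 to 4. ECH mice 1 to 4 had 152, 196, 56.0 and 50.4 CPM, and in HF mice 1 to 4 it measured 231, 221, 241 and 268 CPM. All HF mice lay above all other mice, and HF stood 1.14 ± 0.44 above Ct on the log2 scale (adjusted p = 0.24) and 1.08 ± 0.44 above ECH (adjusted p = 0.59). Within the same set HF stood 2.18 ± 0.13 above ECH (adjusted p = 0.0017), and with the set as a covariate 2.18 ± 0.41 above ECH and 2.85 ± 0.53 above Ct (adjusted p = 0.023), so that Pilra passed under these settings. So did Pilrb1 and Pilrb2. The ECH mice of the 2 library sets differed by 3.27 times in Pilra, and by 3.83 and 2.93 times in its activating relatives Pilrb1 and Pilrb2, which are named after their values were seen. These 3 genes are close relatives, and no source used here says how the counting split reads between them. Selplg, the selectin ligand PSGL-1, stood at 314, 280 and 374 CPM, and Cd52, a small sialylated glycoprotein, at 342, 289 and 359 CPM.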

How the data were processed

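RNA of sorted cardiac Mφ from 12 mice (Ct, ECH and HF, n = 4 each, grouped by their labelled condition) was amplified with SMART-Seq v4 for paired-end sequencing. The authors used Trimmomatic, TopHat2 (mm10) and featureCounts, and deposited raw counts per gene without normalization. No source used here gives the versions, gene annotation or strand setting. Libraries held 88466559 to 111180291 counts and no molecular identifiers, so a count is not an independent molecule.

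The counts were fitted with edgeR 4.0.16 (R 4.3.3): filterByExpr by group (14608 of 24445 genes kept), TMM scaling and 1 quasi-likelihood fit of all 12 libraries with a mean per group. Benjamini-Hochberg adjustment ran over all genes tested. Genes were called at an adjusted p under 0.05, and counts over all genes in the closing section also required a 2-fold change, a limit the study used to select genes. P values weigh a difference between groups against the spread between mice. Where the inferred library set follows the group, they also carry any difference between the sets. Errors are SE for fold changes and SD for means. Levels per length were divided by the union of exons of GENCODE M21.

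The members, lists and tests were chosen with earlier results of these data known. Other pathway genes were named when their adjusted p was under 0.05, when they were among the 3 highest in mean CPM of their role, or when they had the largest fold change of their role in a comparison. For each member, the 3 genes with the highest Pearson r over the libraries were named. There were 23 alternatives at most per comparison: RLE scaling, DESeq2 1.42.0, the edgeR likelihood ratio test, limma-voom (limma 3.58.1), no filter, a minimum of 1 CPM in 4 libraries, the compared groups alone, a block on the replicate number, a covariate for the inferred library set, same-set libraries alone, each library left out and both libraries with many genes at 0 left out, and for all genes the call without the fold limit. The code was tested on simulated data. Promoters came from RefSeq (GRCm38.p6). Plots were made with matplotlib 3.10.9 (Python 3.11.15). The values of some listed genes are not reported here.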

Additional observations from a re-analysis of the deposited data

Results flagged for a closer look

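In 6 of 126 groups of 4 mice examined (the members and the named pathway genes in Ct, ECH and HF), 1 mouse lay far from the other 3 by Dixon's criterion, which chance alone meets in about 1 of 20 groups. Siglece measured 95.1 CPM in Ct mouse 2, against 117 to 120 CPM in the other Ct mice, and 120.4 CPM in HF mouse 1, against 95.1 to 97.1 CPM in the other HF mice. Both are the libraries with many genes at 0. Siglech measured 10.01 CPM in ECH mouse 2, while the remaining ECH mice lay between 4.78 and 5.33 CPM. Siglecg measured 8.78 CPM in ECH mouse 1, against 2.95 to 3.65 CPM in the others. St6galnac5 measured 0.208 CPM in ECH mouse 1, against 0.0679 to 0.0897 CPM in the others, from 21 counts. Pilra measured 207.6 CPM in Ct mouse 3, against 68.0 to 86.8 CPM in the other Ct mice.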

How the results depend on the processing

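With 4 mice per group and 2 inferred library sets that follow Ct and HF and split ECH, the number of calls depended on the method. The cause was not tested. RLE scaling, both other filters and the call without the fold limit kept every count within 1.5 times. All genes called numbered 52 for ECH against Ct, 55 for HF against Ct and 0 for HF against ECH, and in the same order 248, 337 and 47 with DESeq2 and 218, 273 and 48 with the likelihood ratio test. Limma-voom gave 84 and 130 in the comparisons with Ct, and only the groups compared gave 8 for ECH against Ct. The set as a covariate gave 22, 208 and 272, libraries of the same set gave 1 for ECH against Ct and 370 for HF against ECH, and single libraries left out gave 11 to 95 for ECH against Ct and 15 to 103 for HF against Ct, each lowest without Ct mouse 1 and highest without Ct mouse 3. Counts also moved by over 1.5 times without Ct mouse 4, ECH mouse 3 or ECH mouse 4 for ECH against Ct, and without Ct mouse 4, ECH mouse 1 or any HF mouse for HF against Ct. Leaving out both libraries with many genes at 0 moved no count by over 1.5 times, but of the further pathway genes Siglech was then called for ECH against Ct in place of B4galt1.

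Of the 49 further pathway genes, 1, 0 and 0 passed an adjusted p of 0.05 in the 3 comparisons. DESeq2 gave 5, 2 and 1, the likelihood ratio test 5, 1 and 1 and limma-voom 3 and 1 against Ct. The set as a covariate gave 0, 3 and 4, and only the groups compared and libraries of the same set gave 0 for ECH against Ct, with 4 of the same set for HF against ECH. Single libraries left out gave 0 to 2 for ECH and 0 to 1 for HF against Ct. Of the 10 members, 1, 0 and 0 passed, and 2, 1 and 0 did with DESeq2 and the likelihood ratio test. Limma-voom and only the groups compared gave 1 member for HF against Ct, and only the groups compared and libraries of the same set gave 0 for ECH against Ct. For HF against ECH the set as a covariate gave 2 (Cmah and St3gal6), where 272 of all genes passed with the 2-fold limit as well. Libraries of the same set gave 3 (Nans as well, at a log2 fold change of 0.77, below 2-fold), where 370 of all genes passed with that limit. Single libraries left out gave 1 member for ECH against Ct in each case and 0 to 1 for HF against Ct, the 1 without ECH mouse 3. Under the alternatives, all genes were counted only with the 2-fold limit, so no matching share stands beside the counts of the members and the 49 genes. Nothing is read from these counts.

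The replicate numbers of the labels did not pair the mice: deviations of same-numbered mice correlated between -0.0758 and 0.0833 over 12 pairs, with 0 pairs over 0.1. With the replicate number as a block, 22 genes were called for ECH against Ct and 18 for HF against Ct, and of the further pathway genes 0 for ECH against Ct.

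Cmah stayed below Ct in ECH under all 23 alternatives (log2 fold change -2.07 to -1.40). In HF it lay from -1.26 to -0.05 over the 22 that could be made. The last value, with the set as a covariate, was -0.05 ± 0.27 and so sets no direction. St3gal6 stayed below Ct in ECH under all 23 (-1.56 to -0.59) and in HF under 21 of 22, the exception being the set as a covariate (1.004). Nans stayed above ECH in HF under all 23 (0.40 to 0.77).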
